A study of Rattus norvegicus with 6 samples.

Results

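Oxidative phosphorylation genes encoded in the nucleus were measured in the ovaries of neonatal rats that had received lipopolysaccharide (LPS), an outer membrane component of Gram-negative bacteria, or saline. Members were all genes whose rat symbol begins with Ndufa, Ndufb, Ndufc, Ndufs, Ndufv, Cox4 to Cox8, Atp5 or Uqcr, together with Sdha to Sdhd, Cycs and Cyc1, and each gene was represented by its brightest probe. Of the 15154 genes named on the arrays, 84 were members. The rule for members used symbols alone, and measured brightness served only to pick the probe of a gene. Female Wistar pups had been injected intraperitoneally on PNDs (postnatal days) 3 and 5 with 0.05 mg/kg of LPS from Salmonella enterica or with an equal volume of saline, and whole ovaries were taken on PND 7. There were 3 arrays for each treatment. The methods call them biological replicates taken from a few pups of a small number of litters, and which pups went into which array is not given in the sources used here, so that p-values measure only the spread between these arrays.

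The respiratory chain sits in the inner mitochondrial membrane. Complexes I (NADH dehydrogenase) and II (succinate dehydrogenase) pass electrons from NADH and succinate to ubiquinone, complex III passes them on to cytochrome c, and complex IV (cytochrome c oxidase) hands them to oxygen, while complex V (ATP synthase) uses the resulting proton gradient to make ATP. The oocyte is rich in mitochondria, and steroid-producing cells, muscle and brown fat also hold many. The name pattern took in genes that are not subunits of the chain. Of the 84 members, 6 were Ndufaf assembly factors of complex I, Atp5if1 is the inhibitor of the ATP synthase, Ndufa10l1 is a paralog of a complex I subunit and Cox6c-ps1 is a pseudogene. Cyc1, Cox7a1, Atp5mc3 and Ndufa4l2 were not matched to a probe under these names and were not analysed here, and neither were the subunits encoded in mitochondrial DNA.

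Promoters of respiratory genes often carry sites for the factors NRF1, GABPA (of the ETS family) and YY1. A short window upstream of the start is shown for 4 members as examples. Their signals are described below, and they do not stand for the members as a set. Sdhb and Uqcrc2 encode widely expressed subunits of complexes II and III, Uqcr10 was the only member that was both measured on all arrays and past an unadjusted p of 0.05, and Cox8b, an isoform of muscle and brown fat, had the widest spread of values. Each run holds the 250 bases before the start of the RefSeq gene, 5′ to 3′ on the strand of the gene. Capitals mark the letters searched for, on either strand: GCGCATG (NRF1), CCGGAAG (ETS), AAGATGG (YY1), GGGCGG (SP1) and TATAAA.
Sdhb (GRCr8 chr5:158547684-158547933, plus strand): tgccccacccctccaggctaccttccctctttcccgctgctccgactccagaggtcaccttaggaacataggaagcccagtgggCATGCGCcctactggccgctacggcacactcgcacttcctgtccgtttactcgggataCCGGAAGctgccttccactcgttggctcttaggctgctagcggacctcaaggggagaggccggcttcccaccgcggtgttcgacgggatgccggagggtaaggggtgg
Uqcrc2 (GRCr8 chr1:184598990-184599239, plus strand): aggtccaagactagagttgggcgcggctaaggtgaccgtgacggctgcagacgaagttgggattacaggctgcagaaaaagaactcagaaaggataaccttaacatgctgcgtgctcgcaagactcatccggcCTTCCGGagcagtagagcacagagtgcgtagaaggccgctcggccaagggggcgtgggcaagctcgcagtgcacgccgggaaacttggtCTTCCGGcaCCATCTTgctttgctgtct
Uqcr10 (GRCr8 chr14:83791915-83792164, minus strand): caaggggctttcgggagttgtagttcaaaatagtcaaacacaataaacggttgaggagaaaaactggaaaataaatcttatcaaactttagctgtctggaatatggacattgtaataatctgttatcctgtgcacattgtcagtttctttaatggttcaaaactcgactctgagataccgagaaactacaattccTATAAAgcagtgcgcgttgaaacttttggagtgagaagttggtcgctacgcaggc
Cox8b (GRCr8 chr1:205408274-205408523, minus strand): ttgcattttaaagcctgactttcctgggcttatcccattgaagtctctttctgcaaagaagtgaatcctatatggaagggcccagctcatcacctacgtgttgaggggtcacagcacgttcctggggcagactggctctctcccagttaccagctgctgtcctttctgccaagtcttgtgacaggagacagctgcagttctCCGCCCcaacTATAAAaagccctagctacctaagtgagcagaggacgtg
In these windows Sdhb held an NRF1 and an ETS core, Uqcrc2 held ETS cores and a YY1 core, Uqcr10 held a TATA sequence and Cox8b held a TATA sequence beside an SP1 core. RefSeq promoter windows, which also include the 50 bases after the start, were found for 74 of the 84 members. The NRF1 core was present in 15 of these (20.3%) and in 3.94% of all 27457 windows (5.14% of the 12384 windows of genes named on the arrays). The ETS core was present in 22 members (29.7%, compared with 9.22% of all and 13.1% of array genes) and the YY1 core in 16 (21.6%, compared with 7.29% and 7.37%). At least 1 of these cores was found in 38 members (51.4%) and in 18.5% of all windows. The SP1 core was present in 41.9% of members, a share above that of all windows (34.9%) and below that of array genes (49.1%). TATAAA was present in 8.11% of members and 14.3% of all windows, and the share of array genes was also above that of members. The ETS and YY1 letters can share AAG, which occurred in 0 members. Members with and without the NRF1 core had a median log2 difference between LPS and saline of -0.13 and -0.17, and for the ETS core the medians were -0.16 and -0.14 (descriptions, with no test). A match is a description of the letters and not a site.

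Signals are log2 values of the processed intensity from which the array's own 75th percentile was subtracted, so that 0 stands for that percentile, and a difference is the mean of the LPS arrays minus the mean of the saline arrays. The fit was made in limma over all probes, and p-values were adjusted over all of them by the Benjamini-Hochberg method. Correlations between arrays lay from 0.962 to 0.995, and all 6 arrays lay on 1 slide. One slide row held the 3 saline arrays together with LPS replicate 1, whereas the other row held LPS replicates 2 and 3. Saline replicates 2 and 3 stood apart from the other arrays. They held transcripts of the adrenal gland: the summed signal of 7 adrenal cortex markers, on a linear scale where the 75th percentile is 1, was 165 and 221 there but 0.805 to 1.67 on the other 4 arrays, and that of 7 adrenal medulla markers was 80.1 and 52.4 there but 2.53 to 5.10 on the others. Saline replicate 2 was also the array with the highest summed signal of 5 brown fat markers (4.11, compared with 0.418 to 0.889 elsewhere). Ucp1, Cidea and Cpt1b were highest there, whereas Elovl3 was highest on LPS replicate 1 and Dio2 was well above background on no array. The ovarian label was borne out on all arrays by oocyte and granulosa markers, of which 8 of 8 and 5 of 6 were well above background on all 6 arrays. The counts and the medians of the complexes are therefore given with and without saline replicates 2 and 3, and the part of adrenal or brown fat RNA in any result was not tested. In whole ovaries, fewer cells of a type and less RNA per cell cannot be told apart.

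Most members had slightly lower signals on the LPS arrays, and none passed after adjustment. The difference was negative for 73 of 84 members and positive for 11, with a median of -0.16 on the log2 scale (a signal difference of -10.4%) and quartiles of -0.25 and -0.074. Over all 15154 named genes the median was -0.033, and 54.5% were negative. On the arrays 81 members were well above background on all 6, Cox6a2 on 5, Cox8b on 2 and Cox8c on 0. Members were bright, and brightness moved with the difference: the median was 0.019 over the 10012 named genes well above background on all arrays, and -0.067 over the 1403 of these at or above the lower quartile of the members' level (65.4% negative). The spread between arrays was as large as the difference, with a median within-group SD of 0.18 and a median SE of 0.19, and 48 of the 84 differences were smaller than their own SE.

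At an unadjusted p under 0.05, 2 members were lower and 0 were higher in the LPS group. These were Uqcr10 and Cox8b. Over all named genes 13.2% were lower and 2.45% were higher at this p, and over genes well above background on all arrays 2.73% and 1.94%, so the share of members that were lower (2.38%) was not above either, and of the 81 members in the latter class 1 was lower. Among the 1403 genes at or above the lower quartile of member level the share lower was 3.06%. In limma 0 members had an adjusted p under 0.05, and 0% of all named genes did, with a lowest adjusted p of 0.283 among members. Cox8b alone also passed a fold of 2, compared with 1.76% of all named genes. With saline replicate 1 as the only saline array, 1 member was lower (Ndufv3) and 1 was higher (Ndufa1) at an unadjusted p under 0.05, and the median was -0.17 with 63 of 84 members negative. In the same fit 2.23% of all named genes were lower and 2.60% were higher, and of genes well above background on all arrays 0.749% and 2.19%. In that comparison the median over all named genes was -0.11 and that over the 1403 bright genes was -0.14. Within the slide row that held both treatments, LPS replicate 1 was lower than the mean of the saline arrays for 62 members, with a median difference of -0.12. The same was so for 7825 of the 15154 named genes (median -0.020) and for 854 of the 1403 bright genes (median -0.084). This comparison rests on 1 LPS array.

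The groups did not overlap for 18 members. All 3 LPS arrays lay below all 3 saline arrays for 17 (20.2%) and above them for 1 (Cox8c, which was well above background on no array). The corresponding shares were 17.9% and 5.31% of all named genes, and 6.88% and 5.88% of genes well above background on all arrays. Of the 81 members well above background on all arrays, 16 (19.8%) were separated downward and 0 upward, and among the 1403 bright genes 14.0% were separated downward. The smallest p of an exact permutation test of 3 arrays against 3 is 0.1. Against saline replicate 1 alone, all 3 LPS arrays were lower for 48 members (57.1%), compared with 52.3% of the bright genes. Compared by replicate number, LPS was below saline for 63, 73 and 61 of the 84 members for numbers 1, 2 and 3, and 44 members were lower in all 3 of these pairs while 3 were higher in all 3. No share over all named genes or over the bright genes is given for these pairs, so those counts are no result about the members.

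**Figure D1:**
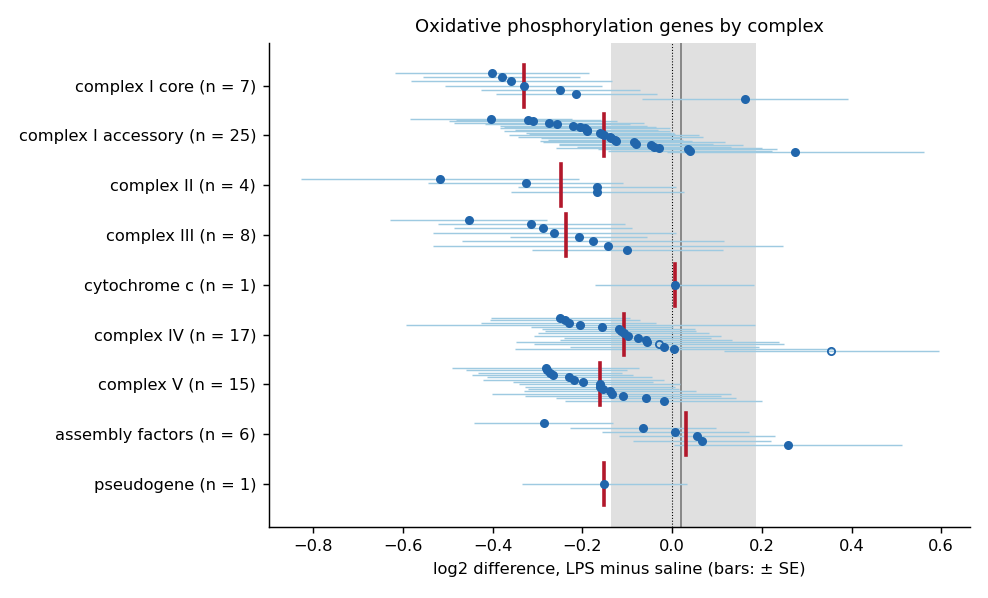
Difference between LPS and saline (log2, horizontal axis) for each member, grouped by complex, with the SE of the limma fit as bars and the median of each group as a red line; the grey band holds the middle 50% of the 10012 named genes well above background on all arrays, open circles are members not well above background on all arrays, and Cox8b (-3.30) lies off the axis and is not drawn. Most points lie to the left of 0, and most bars reach the grey band.

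In complex I, the 7 core subunits, which hold the flavin and the iron-sulfur clusters, had a median difference of -0.33, with 6 of 7 negative and 0 past an unadjusted p of 0.05. Ndufv1, which binds the flavin, had signals of 3.30, 3.12 and 3.11 with LPS, against 3.55, 3.74 and 3.38 with saline. The groups did not overlap, and the difference was -0.38 ± 0.17 (SE, n = 3 and 3, adjusted p = 0.338 in limma). Ndufs1, the largest of the iron-sulfur subunits, had values of 0.84, 0.97 and 0.95 with LPS, against 0.95, 1.64 and 1.37 with saline. Here saline replicate 1 lay among the LPS arrays, and the fitted difference was -0.40 ± 0.22 (adjusted p = 0.436 in limma). Ndufs7, another iron-sulfur subunit, was separated, at 2.15, 2.21 and 2.03 with LPS, against 2.27, 2.65 and 2.47 with saline (-0.33 ± 0.18, adjusted p = 0.422 in limma). Ndufv2, the partner of Ndufv1, was separated as well (-0.25), while Ndufs3 (-0.21) overlapped. Ndufs8 was the exception in sign, at 0.16 ± 0.23, with the lowest value of all arrays (0.77) on saline replicate 1. Against saline replicate 1 alone the core subunits had a median of -0.14 with 5 of 7 negative, and against saline replicates 2 and 3 they had a median of -0.38 with 7 of 7 negative.

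The 25 genes grouped as accessory subunits of complex I, which surround the core, include the paralog Ndufa10l1. They had a median of -0.15, with 22 negative, 6 separated downward (Ndufa10l1 among them) and 0 past an unadjusted p of 0.05. Against saline replicate 1 alone the median was -0.16 with 19 negative. Ndufv3 had the lowest value among them. Its signals were 3.24, 3.36 and 3.34 with LPS, against 3.97, 3.64 and 3.54 with saline, and the difference was -0.40 ± 0.18 (adjusted p = 0.328 in limma). The LPS arrays lay close together and below every saline array, with the highest value on saline replicate 1, which lacked the adrenal signal. Another probe of Ndufv3 gave -0.37, also separated, and the dimmest one gave 0.049. Ndufb7 was also separated, at 3.62, 3.78 and 3.63 with LPS, against 3.89, 4.12 and 3.98 with saline (-0.32 ± 0.16, adjusted p = 0.390 in limma). The paralog Ndufa10l1 was separated on its brightest probe (-0.26) but not on its other probe (0.060). At the other end, Ndufa1, an essential subunit encoded on the X chromosome, had 3.21, 3.14 and 3.09 with LPS, against 2.30, 3.40 and 2.92 with saline. Its difference of 0.27 ± 0.29 rested on saline replicate 1, and without that array it was -0.0091. The 6 Ndufaf assembly factors had a median of 0.032, and 4 of the 6 were positive. The sign turned with the saline arrays used: against saline replicate 1 alone the median was -0.073 and against saline replicates 2 and 3 it was -0.016, each with 4 of 6 negative. Ndufaf1 was the separated one, at -0.29 ± 0.16 (adjusted p = 0.440 in limma), and had -2.80, -2.94 and -2.88 with LPS, against -2.66, -2.49 and -2.60 with saline. Ndufaf7, a methyltransferase that acts in complex I assembly, had the highest difference of the assembly factors (0.26 ± 0.25, adjusted p = 0.779 in limma), and -0.17 against saline replicate 1 alone.

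The 4 subunits of complex II, which also belongs to the tricarboxylic acid cycle, were all negative, with a median of -0.25 and 0 past an unadjusted p of 0.05. Sdha, the flavoprotein, had the lowest difference of any member measured on all arrays. It had 2.44, 2.84 and 2.77 with LPS, against 2.54, 3.55 and 3.51 with saline. The groups overlapped: saline replicates 2 and 3 were high and saline replicate 1 lay among the LPS arrays. The difference was -0.52 ± 0.31 (adjusted p = 0.507 in limma), and it was 0.14 against saline replicate 1 alone. Sdhb, the iron-sulfur subunit, had saline replicate 1 again among the LPS arrays, and was at -0.33 ± 0.22 over all arrays and 0.0062 against saline replicate 1. The membrane anchors Sdhc and Sdhd were both at -0.17. The complex had a median of 0.07 against saline replicate 1 and of -0.41 against saline replicates 2 and 3.

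All 8 members of complex III were negative, with a median of -0.24, and against saline replicate 1 alone the median was -0.27 with 5 negative. Uqcr10, a small subunit of the complex, had 4.58, 4.57 and 4.39 with LPS, against 4.83, 5.17 and 4.91 with saline. The groups did not overlap, and the closest values were LPS replicate 1 and saline replicate 1. The difference was -0.45 ± 0.17 (SE, n = 3 and 3), and the limma p of 0.0366 became an adjusted p of 0.283. It rested on 1 probe with 1 spot, so no second measurement exists on the same array. The unadjusted p was under 0.05 in 11 of the 21 alternative settings and no longer so when LPS replicate 1, 2 or 3 or saline replicate 2 or 3 was left out, and with single arrays left out the difference ranged from -0.52 to -0.36. Against saline replicate 1 alone it was -0.32. The core proteins Uqcrc1 and Uqcrc2 (-0.29 and -0.31) and the Rieske iron-sulfur protein Uqcrfs1 (-0.26) overlapped between groups. Uqcrfs1 had 2.56, 2.83 and 2.86 with LPS, against 2.47, 3.38 and 3.18 with saline, with its lowest value of all on saline replicate 1, and it was 0.28 against that array alone. Uqcrh was separated at -0.21. Uqcr11 had 3 probes, at -0.18, -0.28 and -0.26, of which 1 was separated. Cytochrome c itself (Cycs), the carrier between complexes III and IV, was at 0.0056 ± 0.18, and its other probe was at 0.075.

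**Figure D2:**
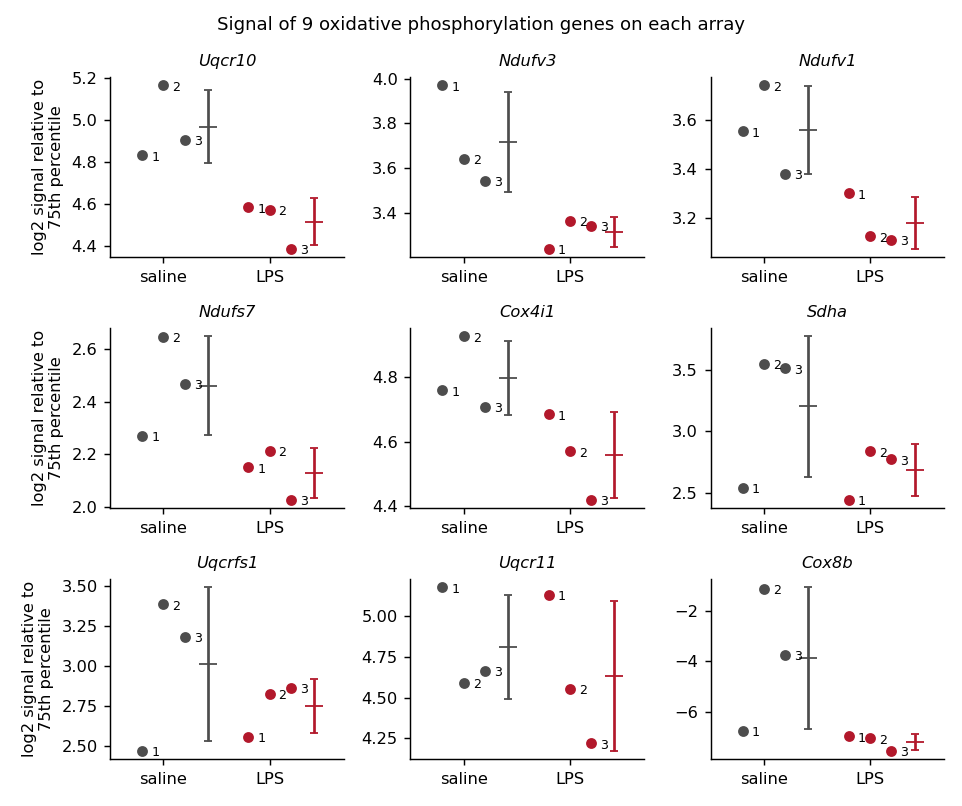
Signal of 9 members on each array (vertical axis, log2 relative to the 75th percentile of the array; the axes differ between panels), with saline in grey and LPS in red, replicate numbers beside the points, and mean ± SD (n = 3) to the right of each group. Uqcr10, Ndufv3, Ndufv1, Ndufs7, Cox4i1 and Cox8b did not overlap between groups, whereas saline replicate 1 lay among the LPS arrays for Sdha and below them for Uqcrfs1, and replicate 1 was the highest of both groups for Uqcr11.

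The 17 genes of complex IV (Ndufa4, now regarded as a subunit of this complex, included) had a median of -0.11, with 15 negative, and against saline replicate 1 alone a median of -0.31, again with 15 negative. Cox4i1, the common isoform of a regulatory subunit, had 4.68, 4.57 and 4.42 with LPS, against 4.76, 4.93 and 4.71 with saline, which did not overlap (-0.24 ± 0.17, adjusted p = 0.609 in limma). Its isoform Cox4i2, best known from lung, was at -0.055 ± 0.29 and varied by replicate number, with 2.44, 1.85 and 1.63 with LPS, against 2.44, 1.95 and 1.69 with saline. Cox6a1 was separated at -0.25 ± 0.15 (5.36, 5.49 and 5.33 with LPS, against 5.71, 5.63 and 5.59 with saline, adjusted p = 0.534 in limma), while its heart and muscle isoform Cox6a2 was at -0.030 and dim. Cox6b1 was at -0.018 and its testis isoform Cox6b2 at 0.0038, the latter with an SE of 0.35. Cox5a and Cox5b were at -0.23 and -0.16, and Cox7a2, Cox7a2l, which takes part in joining complexes into supercomplexes, Cox8a and Ndufa4 lay between -0.12 and -0.058. The testis isoform Cox8c stayed too dim to clear background throughout.

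Cox8b, the isoform of skeletal muscle, heart and brown fat, had the widest spread of all members. Its signal was -6.96, -7.04 and -7.54 on the LPS arrays, where it was not well above background, and -6.76, -1.15 and -3.74 on the saline arrays, where it was above background on replicates 2 and 3. Saline replicate 1 was therefore like the LPS arrays, and the groups were separated by a narrow margin. Only saline replicates 2 and 3 had a measured level, so the fold between the groups is not known. The mean of the 3 saline arrays was 4.40-fold above the lowest signal that was well above background on each LPS array. That mean includes saline replicate 1, whose signal was not well above background, so 4.40 is no strict lower bound. The measured means were -7.18 ± 0.31 and -3.88 ± 2.81 (SD, n = 3 each), with an adjusted p of 0.284 in limma. The ratio to that lowest signal was 1.71-fold without saline replicate 2, 4.19-fold without saline replicate 3 and 11.9-fold without saline replicate 1. The arrays with Cox8b were those with adrenal transcripts, and the higher of them, saline replicate 2, was the one with the brown fat marker Ucp1, which was at 0.63 there and at -5.21 to -4.43 on the other 5 arrays. The brown fat markers Cidea and Cpt1b were also highest there, but Elovl3 was not, and Dio2 was well above background on no array. The summed signal of 5 skeletal muscle markers was 0.371 to 0.397 on the LPS arrays and 0.226 to 0.442 on the saline arrays, with Myh1 and Atp2a1 well above background on no array. The part of these tissues in the Cox8b signal was not tested.

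All 15 members of complex V were negative, with a median of -0.16 and 0 past an unadjusted p of 0.05. In the catalytic F1 part, Atp5f1a (the alpha subunit) was at -0.27 ± 0.18, Atp5f1b (beta) at -0.019 ± 0.22 and Atp5f1c (gamma) at -0.14 ± 0.19, and none was separated. Atp5f1b had 2.61, 2.84 and 2.94 with LPS, against 2.45, 2.97 and 3.03 with saline, and its difference was 0.35 with saline replicate 1 as the only comparator. In the peripheral stalk, Atp5pb was separated, at 4.89, 4.72 and 4.65 with LPS, against 4.95, 5.07 and 5.06 with saline (-0.27 ± 0.16, adjusted p = 0.494 in limma). The genes for the membrane ring Atp5mc1 and Atp5mc2, which encode the same mature protein, were at -0.20 and -0.22, the first separated and the second not. The inhibitor Atp5if1 was at -0.059 ± 0.20. Against saline replicate 1 alone 12 of the 15 members were negative, with a median of -0.24.

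**Figure D3:**
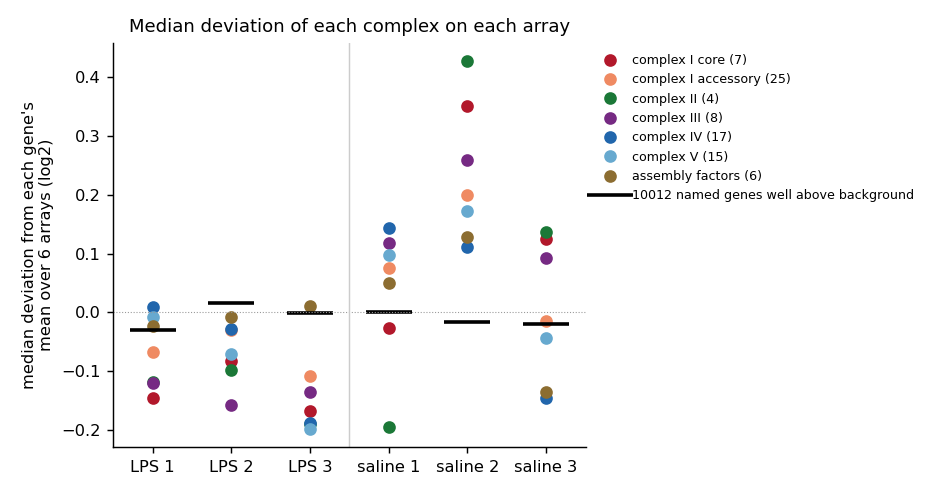
Median deviation of the members of each complex from each gene's own mean over the 6 arrays (log2, vertical axis) on each array, with the number of genes in brackets; black dashes are the 10012 named genes well above background on all arrays. Saline replicate 2 held the highest median of complexes I, II, III and V, while the dashes lie between -0.030 and 0.016.

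The median over all members, as a deviation from each gene's mean, was -0.04, -0.05 and -0.15 on LPS replicates 1 to 3 and 0.08, 0.18 and -0.02 on saline replicates 1 to 3. Saline replicate 3 thus lay next to LPS replicates 1 and 2, and for 50 of the 84 members saline replicate 2 was the highest saline array. Of the complexes, complex II differed most between saline arrays, at -0.20, 0.43 and 0.14, and the core of complex I was at -0.03, 0.35 and 0.13. Complex IV was arranged otherwise, at 0.14, 0.11 and -0.15.

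For 50 of the 84 members the gap between saline replicate 1 and the mean of saline replicates 2 and 3 was larger than the gap between treatments. A gap of 1 array against 2 varies more than a gap of 3 against 3. No share over all named genes is given either, so this count is no result about the members. Members tended to differ between LPS replicate 1 and LPS replicates 2 and 3 in the same direction as between the saline replicates. Both replicates 1 were low for Sdha (by 0.99 among the saline and 0.36 among the LPS arrays), Uqcrfs1 (0.81 and 0.29), Ndufs8 (0.64 and 0.24) and Atp5f1b (0.55 and 0.29). They were high for Cox7c, where replicates 2 and 3 differed from replicate 1 by -1.03 and -0.80, for Cox6b2 (-1.01 and -0.62), for Uqcrq (-0.60 and -1.26), for Cox4i2 (-0.62 and -0.70) and for Uqcr11 (-0.55 and -0.75). Over the 83 members other than Cox8b the differences in the saline and the LPS group had a Pearson r of 0.65 and a Spearman rho of 0.59, and over all 84 these were 0.33 and 0.55. Over the 10012 genes well above background on all arrays r was 0.46 and rho was 0.53. These correlations are across genes of the same arrays, which are no independent replicates, and describe the arrays only.

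**Figure D4:**
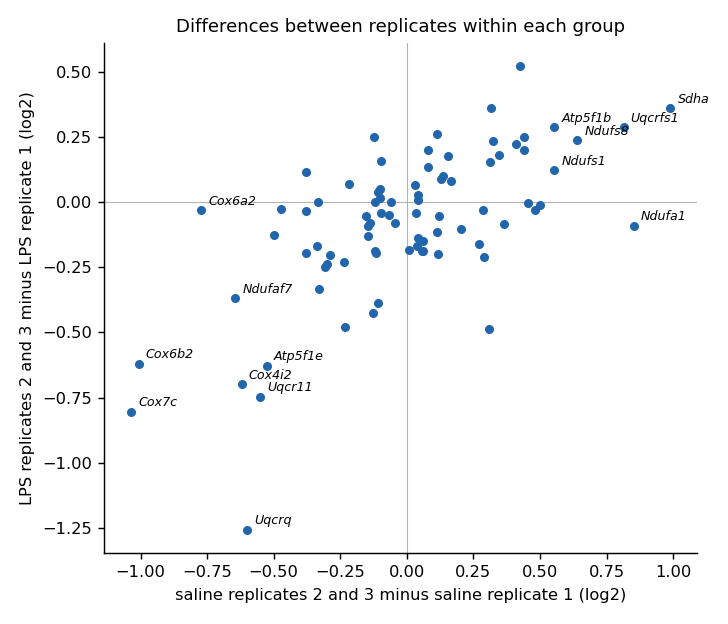
Difference between replicates 2 and 3 and replicate 1 (log2) within the saline group (horizontal axis) and within the LPS group (vertical axis), with 1 point for each of 83 members (Cox8b left out). Points lie along the diagonal from Cox7c, Cox6b2 and Uqcrq at the lower left to Sdha and Uqcrfs1 at the upper right.

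Of the 18 members with several probes, all probes had the same sign for 14, and for 11 all were negative. Opposite signs were found for Cox6b1, Ndufa10l1, Ndufs4 and Ndufv3. For Ndufs4, an accessory subunit of complex I, the brightest probe was at -0.081 and the other at 0.26. Ndufaf4 had 4 probes, with 0.056 on the brightest, and a dim one that cleared background on each LPS array and on no saline array (-3.82, -4.15 and -3.79 with LPS, against -5.01, -4.87 and -4.67 with saline). That probe was higher in the LPS group by a measured 0.93 ± 0.19 (log2, SE, adjusted p = 0.271 in limma). Its fold is not known, because no saline array gave a signal that cleared background. The probe was chosen for mention after its values were seen.

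Other genes of energy metabolism were read from the same fit. All 13 genes of the tricarboxylic acid cycle were negative, with a median of -0.24 and 0 past an unadjusted p of 0.05, and 2 were separated. The direction rested on saline replicates 2 and 3: against these the median was -0.45 with 13 of 13 negative, and against saline replicate 1 alone it was 0.093 with 5 of 13 negative. Dld, the dihydrolipoamide dehydrogenase shared by several complexes, was the closest to an unadjusted p of 0.05, at -0.45 (adjusted p = 0.303 in limma). Of 15 glycolysis genes 12 were negative, with a median of -0.20 and 0 past that p, and against saline replicate 1 alone the median was -0.077 with 10 negative. Among 12 mitochondrial antioxidant, import and carrier genes 9 were negative with a median of -0.098 (-0.021 with 6 negative against saline replicate 1 alone), and 2 were lower at an unadjusted p under 0.05, namely the antioxidant enzymes Sod2 and Prdx3. Sod2 had 0.46, 0.70 and 0.69 with LPS, against 0.70, 2.15 and 2.09 with saline, and Prdx3 had 2.12, 2.34 and 2.37 with LPS, against 2.26, 4.66 and 4.26 with saline. For both, saline replicates 2 and 3 were the high arrays, and saline replicate 1 was not. Among 26 assembly factors outside the name pattern 15 were negative, with a median of -0.072, and against saline replicate 1 alone the sign turned, with a median of 0.053 and 10 negative. Nubpl, an iron-sulfur assembly factor of complex I, was lower (-1.03, limma adjusted p = 0.271), again with saline replicates 2 and 3 high, and Atpaf1, an F1 assembly factor, was higher (0.47). Among 14 biogenesis regulators 9 were negative with a median of -0.035. Against saline replicate 1 alone the median was -0.026 with 8 negative, and against saline replicates 2 and 3 it was 0.0034 with 6 negative. Ppargc1b, a coactivator of mitochondrial biogenesis, was lower (-0.90) and well above background on 2 arrays of each group. The calls in these lists are at an unadjusted p under 0.05, by which 13.2% of all named genes were lower and 2.45% were higher. In these lists 0 genes passed after adjustment.

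Markers of the cell types an ovary preparation can hold moved in several directions. All 8 oocyte markers were positive, with a median of 0.42 and 0 past an unadjusted p of 0.05. Within the slide row that held both treatments the direction turned, with a median of -0.45 and 7 of 8 negative. The summed oocyte signal was 16.8 to 47.0 on the LPS arrays and 20.02 to 33.7 on the saline arrays. Of 6 granulosa cell markers 4 were positive (median 0.34, and -0.33 within the slide row) and 1 was higher, the Kit ligand Kitlg (0.57). Of 8 macrophage markers 6 were positive (median 0.25) and 3 were higher, namely Csf1r (0.52), Adgre1 (0.81) and Mrc1 (1.19). Mrc1 was well above background on 2 of the 3 saline arrays. The adrenal cortex and medulla lists were negative in 7 of 7 genes each, with medians of -4.77 and -3.50, and 6 genes of each were lower. Of 3 red blood cell markers all were negative, with a median of -0.85, and 2 were lower. The brown fat and skeletal muscle lists had medians of -0.74 and -0.050, with 0 and 2 genes lower, the latter being the muscle genes Myh1 and Atp2a1 that were well above background on no array. All calls in this paragraph are at an unadjusted p under 0.05, and 0 genes passed after adjustment. At this p 13.2% of all named genes were lower and 2.45% were higher. The part of these cells in the members' differences was not tested.

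**Figure D5:**
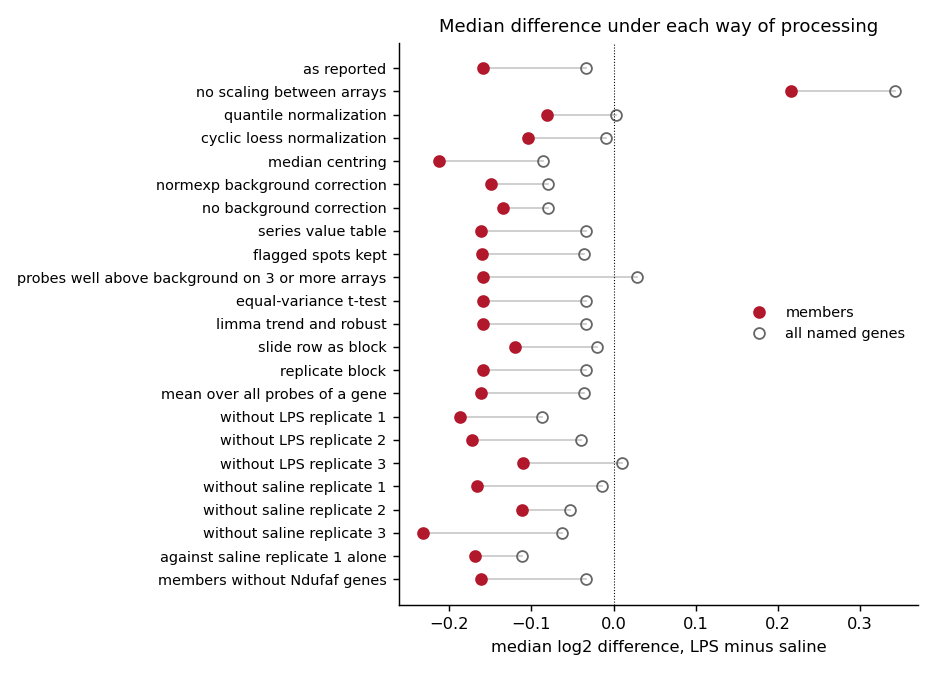
Median log2 difference between LPS and saline (horizontal axis) over the members (filled) and over all named genes (open) under each way of processing the arrays. The members' median lay below that of all named genes under each setting, and without scaling between arrays both were positive (0.22 and 0.34).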

How the data were processed

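Ovarian RNA was measured on 6 Agilent 1-colour arrays (3 LPS, 3 saline), grouped by the treatment and number in the labels. Per array, the authors deposited the intensities that Feature Extraction 10.5.1.1 had processed, already background-subtracted, and a table of the same intensity values that differed from them by at most 0.497%. The labels name the package lumi without its role, and they give biotin as the label whereas the methods name Cy3. No normalization of the arrays is stated. The log2 values and differences used here were computed from the deposited intensities: outlier spots were left out, spots of a probe averaged, and the 75th percentile of the array subtracted. limma 3.58.1 in R 4.3.3 compared treatments over all of the 30367 probes with at least 2 values in each group, with Benjamini-Hochberg adjustment, and was tested on simulated data. The gene name column of the files was empty, so probes were named by RefSeq accession through a GRCr8 table (17998 probes, 15154 symbols; 3408 RefSeq probes were not matched), and 107 probes gave the 84 members. A probe was well above background on an array when at least 50% of its spots were. No spot was saturated, and the number of arrays limits the precision.

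The members and lists were chosen with earlier results of these data known. Named genes were the core subunits and isoform sets, the 10 largest differences among separated members, those past a fold of 2 and an unadjusted p of 0.05 together, the 3 highest and the 3 lowest, and members whose probes disagreed in sign. Not every gene under this rule is reported here. A few others that show the spread between replicates were chosen after their values were seen. Same-numbered arrays deviated together from their group means (correlations of 0.298, 0.215 and 0.254), and the pairing rests on these alone. LPS replicate 2 with saline replicate 3 had 0.160 and LPS replicate 3 with saline replicate 2 had 0.0678, while the remaining pairs were negative. Numbers 2 and 3 are therefore only weakly told apart. Of the 21 alternative settings, 1, saline replicate 1 as the only saline array, was added after seeing the data. That fit assumes the lone array to vary like the others.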

Additional observations from a re-analysis of the deposited data

How the results depend on the processing

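The median over members stayed negative under each alternative once the shift of all genes was taken out, and moved by less than the spread between arrays (SD 0.0827). Without scaling, the median of all named genes was 0.38 higher than with it. The members' median was then 0.22, or -0.16 relative to that shift, and values without scaling are given relative to it. Counts of lower members at an unadjusted p under 0.05 (2 as reported) were 1 without scaling, 5 with normexp, 6 without background correction, 11 in the equal-variance t-test (in which 1518 of 15154 named genes and 327 of the 10012 well above background on all arrays were also lower), 5 with limma trend and robust, 0 with the slide row as a block, 1 against saline replicate 1 alone and 0 to 6 with single arrays left out (6 without saline replicate 1, 0 without any other). Higher members (0 as reported) were 1 with cyclic loess and 1 against saline replicate 1. The 2-fold count (1 as reported) was 0 with quantile, cyclic loess, no background correction, the filter on dim probes, the t-test, the slide row or saline replicate 1 alone, and 0 to 1 with arrays left out. Separated members (18 as reported) were 2 without scaling, 7 with quantile, 8 with cyclic loess, 57 against saline replicate 1 and 18 to 40 with arrays left out, where fewer arrays make separation easier. Against saline replicate 1 all LPS arrays were lower for 48 members (57.1%), compared with 36.3% of all named genes and 52.3% of the bright genes. For most other alternatives no share over all named genes is given, so those counts are no result about the members. With the replicate number as a block, 2 members were lower, as without it, and the pairing changed no call. Other causes were not tested.

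Of the 42 named members, 22 changed sign somewhere. With quantile normalization the log2 differences were 0.041 for Atp5f1b, 0.0065 for Cox4i2, 0.077 for Cox6b1, 0.020 for Cox7a2, 0.040 for Ndufa4 and 0.0043 for Ndufs4. With cyclic loess the log2 differences were 0.021 for Atp5f1b, 0.060 for Cox6b1 and 0.029 for Ndufa4. With median centring the log2 differences were -0.049 for Cox6b2 and -0.048 for Cycs. With normexp the log2 differences were 0.046 for Cox7a2l and 0.15 for Ndufa4. Without background correction the log2 differences were 0.0089 for Cox6b1, 0.058 for Cox7a2l and 0.16 for Ndufa4. With the slide row as a block the log2 differences were 0.41 for Cox4i2, 0.049 for Cox7a2, 0.0066 for Cox8a and 0.20 for Ndufa4. Over all probes of a gene the log2 differences were 0.064 for Cox6b1 and 0.091 for Ndufs4. Against saline replicate 1 alone the log2 differences were 0.35 for Atp5f1b, 0.14 for Atp5f1c, -0.67 for Cox6b2, -0.15 for Cycs, -0.17 for Ndufaf7, 0.017 for Ndufs3, 0.14 for Sdha, 0.0062 for Sdhb, 0.14 for Sdhd, 0.0063 for Uqcrc1, 0.0069 for Uqcrc2 and 0.28 for Uqcrfs1. With single arrays left out the ranges were -0.20 to 0.087 for Atp5f1b, -0.29 to 0.15 for Cox4i2, -0.27 to 0.23 for Cox6a2, -0.17 to 0.14 for Cox6b1, -0.21 to 0.34 for Cox6b2, -0.091 to 0.085 for Cycs, -0.0091 to 0.54 for Ndufa1, -0.19 to 0.029 for Ndufa4, -0.15 to 0.0022 for Ndufs4 and -0.051 to 0.27 for Ndufs8. After adjustment 0 members passed at 0.05 under each setting run.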
